A study of Arabidopsis thaliana with 6 samples.

Results

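The 10 genes described here encode enzymes of the main route of auxin synthesis in plants. They are the tryptophan aminotransferase genes TAA1 (AT1G70560), TAR1 (AT1G23320) and TAR2 (AT4G24670) and the flavin monooxygenase genes YUC1 (AT4G32540), YUC3 (AT1G04610), YUC4 (AT5G11320), YUC8 (AT4G28720), YUC9 (AT1G04180), YUC10 (AT1G48910) and YUC11 (AT1G21430). They were chosen by locus, as 10 of the 32140 loci in the files, and for each the isoform that gathered most reads across the 6 libraries was used. TAR2 and YUC4 have an alternative isoform in the files and the others have a single transcript.

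Auxin (indole-3-acetic acid) sets the apical-basal axis of the Arabidopsis embryo and organizes its later pattern. TAA1 and its relatives convert tryptophan to indole-3-pyruvic acid, and YUCCA enzymes turn that intermediate into auxin. The genes of each step overlap in function: embryos that lack several TAA1-type or several YUCCA genes fail to form a root or a normal apex, whereas single mutants are mild. YUC10 and TAR1 are known as genes expressed from the paternal copy in endosperm, the nourishing tissue beside the embryo.

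RNA was measured by SOLiD sequencing of linearly amplified total RNA from hand-dissected Arabidopsis thaliana tissue, 1 library per sample. The kyp libraries (11 and 12) held embryos at the 2-4 cell stage with part of the suspensor, from Landsberg erecta (Ler) mothers labelled kyp-2, a mutant allele of the histone H3 lysine 9 methyltransferase gene KRYPTONITE (KYP), and Columbia (Col) fathers. The globular library held globular-stage embryos with part of the suspensor, from wild-type Ler mothers and Col fathers. The seed coat library came from wild-type Ler seeds whose embryos were at the 2-4 cell stage. The WT libraries (7 and 11) held 2-4 cell embryos from wild-type Ler mothers and Col fathers. The kyp crosses thus have a wild-type paternal copy of KYP, and kyp library 11 carries a wild-type label beside its kyp-2 label in the maternal field. The labels name no separate plants or cultures, so p-values measure the spread between these libraries, which may be technical.

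Gene totals ranged from 1448502 to 4107227 reads. KYP (AT5G13960) was read in every library and averaged 42.4 ± 2.64 CPM in kyp embryos, against 60.0 ± 3.96 CPM in WT embryos (SD, n = 2 each). The log2 fold change was −0.50 (SE 0.42, edgeR adjusted p = 1). Its locus overlaps a gene on the other strand, so these reads are uncertain. CPM here are reads scaled to library size after TMM scaling, a correction for library composition. The 10 seed coat markers other than TT4, among them the ovule factor STK, were all read in every library, and their summed level was 1340 and 1700 CPM in kyp, 934 CPM in globular, 1820 CPM in seed coat and 1940 and 1280 CPM in WT libraries 7 and 11. Without TT4 the globular sum was the lowest. SHP2 was lower in globular over WT (log2 fold change −2.74) and SHP1 in globular over seed coat (−2.38). With TT4 the sums were 4480 and 4860 CPM in kyp, 5070 CPM in globular and 4520 CPM in seed coat. In WT libraries 7 and 11 they were 6900 and 3030 CPM. Of the 11 markers 9 had a negative fold change in globular over seed coat. TT4 (4140 and 2700 CPM) and TT10 (213 and 97.7 CPM) were higher in globular. SHP1, SHP2, STK, TT4 and TT12 overlap genes on the other strand, so their reads are uncertain. Summed embryo markers were 737 and 1200 CPM in kyp libraries 11 and 12, 3140 CPM in globular, 758 CPM in seed coat and 1630 and 1290 CPM in WT libraries 7 and 11. The epidermal gene PDF1 alone gave 2720 CPM of the globular sum, and 5 of the 9 markers had a negative fold change in globular over WT, WOX2 among them at 6.53 CPM in globular and 39.0 ± 11.1 CPM in WT. LEC1, an embryo identity factor, and DRN, an apical factor, had 0 reads in the seed coat library and at least 23 and 5 reads in every embryo library. Most of the embryo marker sum in seed coat was PDF1 and ATML1 (423 and 327 CPM), as in kyp library 11 (212 and 369 CPM). WOX2 stood at 0.896 CPM in seed coat and 58.9 CPM in kyp library 11. WOX8, WOX9, DRN, LEC1 and HDG11 were likewise higher in kyp library 11 than in seed coat. TMO5 went the other way, at 1.79 CPM in seed coat and 0 CPM in kyp library 11. Of 8 endosperm markers 5 to 7 were read in each library, at a summed 110 and 53.7 CPM in kyp libraries 11 and 12, 31.5 CPM in globular, 90.5 CPM in seed coat and 54.2 and 51.0 CPM in WT libraries 7 and 11. The endosperm markers FWA, FIS2 and IKU2 overlap genes on the other strand, so their reads are uncertain. FWA alone gave 32.4 and 29.9 CPM in kyp libraries 11 and 12, and 15.4 and 30.8 CPM in WT libraries 7 and 11. In such bulk samples fewer cells of a type and less RNA per cell cannot be told apart.

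TAR2 and TAA1 were read in all 6 libraries and YUC4 in 5, that is in each embryo library and not in the seed coat. TAR1, YUC3 and YUC10 were read in 4 libraries, YUC11 in 3, YUC8 in 2, and YUC1 and YUC9 in the globular library alone. By library, 6 members had reads in each kyp library, 7 in the globular library, 7 in the seed coat library, and 4 and 6 in WT libraries 7 and 11. To compare genes, levels were divided by transcript length (RPKM, scaled CPM per kilobase). On that scale TAR2 reached 55.0 RPKM and the most abundant YUCCA member, YUC4, 10.7 RPKM. TAR2 lay above 56.8% to 87.4% of loci with a read, and YUC4 above 20.9% to 51.0% in the libraries that held it. The plot of levels by gene shows how few of the members have reads in every library.

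**Figure D1:**
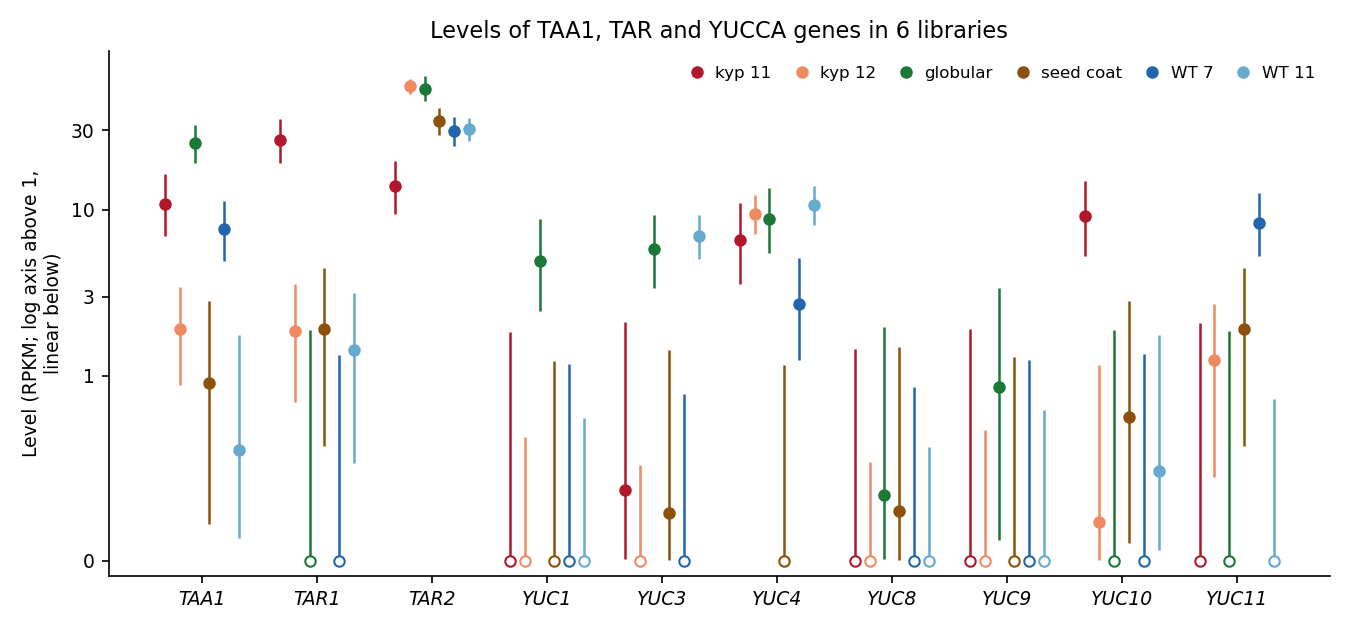
Level of each gene (RPKM, log axis above 1 and linear below) in the 6 libraries, with vertical lines for the exact 95% Poisson interval of the read count and open circles for 0 reads. TAR2 is between 13.9 and 55.0 RPKM in every library, YUC4 is at 0 in the seed coat library alone, and YUC1 has reads in the globular library alone.

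TAR2, one of the redundant aminotransferases, was the most abundant gene of the first step per length in 5 of 6 libraries, the exception being kyp library 11. It had 31 and 335 reads in kyp libraries 11 and 12, 133 in globular, 112 in seed coat, and 103 and 161 in WT libraries 7 and 11. The scaled levels were 20.5 and 81.4 CPM in kyp, 79.0 CPM in globular, 50.2 CPM in seed coat and 44.0 and 45.1 CPM in WT. The lowest and the highest library were thus both kyp, on either side of the WT pair, and the globular and seed coat libraries stood above both WT libraries. TAR2 made up 93.6% of the summed TAA1 and TAR level per length in kyp library 12, 68.1% in globular, 92.2% in seed coat, and 79.6% and 93.7% in WT libraries 7 and 11. In kyp library 11 its share was 27.3%. Its isoforms could not be separated, since they differed by at most 1 read in any library.

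TAA1, the founding member of the family, had its highest level in globular embryos. There were 23 and 11 reads in kyp libraries 11 and 12, 59 in globular, 3 in seed coat, and 25 and 3 in WT libraries 7 and 11. This is 15.2 and 2.67 CPM in kyp, 35.0 CPM in globular (95% Poisson interval 26.7 to 45.2), 1.34 CPM in seed coat (0.277 to 3.93) and 10.7 and 0.841 CPM in WT. Such intervals cover counting error only, because amplified copies without molecular identifiers are not independent molecules. The kyp and WT libraries overlapped, and each pair spread widely.

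TAR1 stood out in a single library. It had 46 and 9 reads in kyp libraries 11 and 12, 0 in globular, 5 in seed coat, and 0 and 6 in WT libraries 7 and 11, or 30.4 and 2.19 CPM in kyp, 0 CPM in globular, 2.24 CPM in seed coat and 0 and 1.68 CPM in WT. In kyp library 11 TAR1 held 51.3% of the TAA1 and TAR level per length, against 0 to 5.22% in the other libraries. A count of 0 allows up to 1.78 CPM in globular and 1.28 CPM in WT library 7 (3 reads). YUC10, of the second step, had its highest level in the same library, with 16 and 1 reads in kyp libraries 11 and 12, 0 in globular, 2 in seed coat, and 0 and 2 in WT libraries 7 and 11. The summed endosperm markers were also highest in kyp library 11 (110 CPM). They came next in seed coat (90.5 CPM), where TAR1 stood at 2.24 CPM and YUC10 at 0.896 CPM. The part of the endosperm markers in the TAR1 and YUC10 values was not tested.

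**Figure D2:**
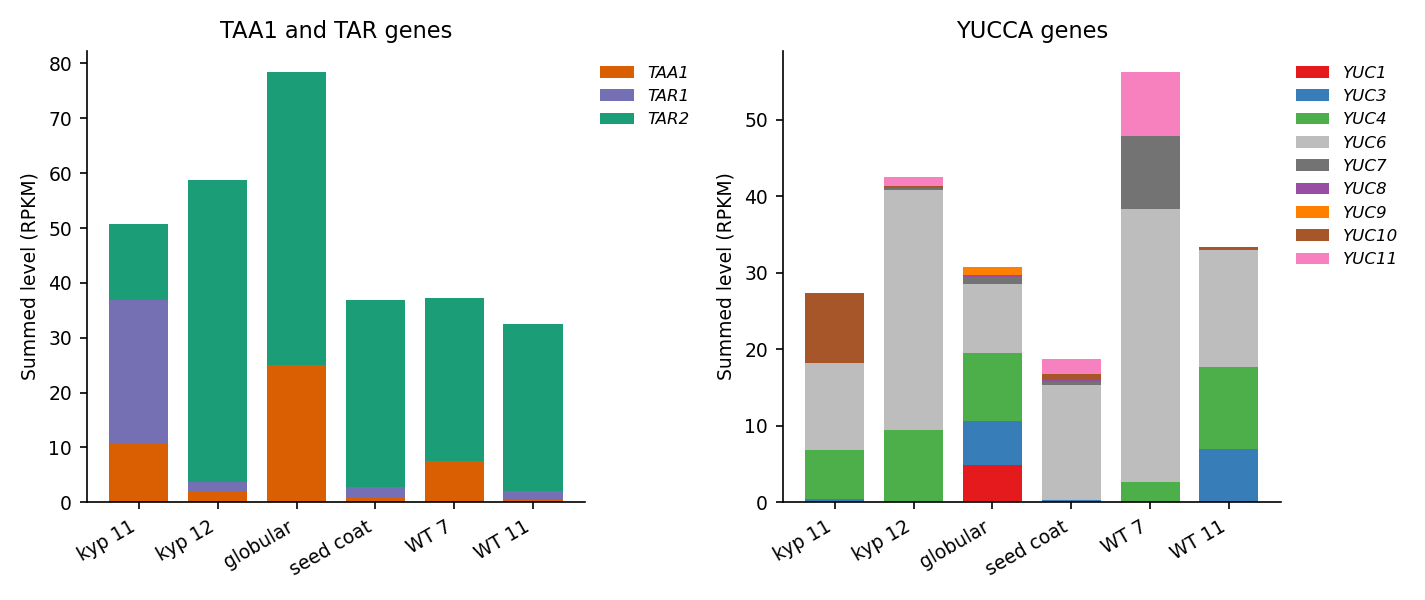
Summed level per length (RPKM) of TAA1 and TAR genes (left) and of YUCCA genes (right) in each library, split by gene. TAR2 makes up most of the left bars except in kyp library 11, and YUC6 (light grey), which is not among the 10 genes, is the largest part of each right bar.

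YUC4, which acts in the embryo apex, was the most widely read YUCCA member. It had 14 and 55 reads in kyp libraries 11 and 12, 21 in globular, 0 in seed coat, and 9 and 54 in WT libraries 7 and 11. The levels were 9.26 and 13.4 CPM in kyp, 12.5 CPM in globular, 0 CPM in seed coat and 3.84 and 15.1 CPM in WT. Each embryo library was above the 1.34 CPM that 0 reads allow in the seed coat library, and kyp, globular and WT overlapped. The shorter YUC4 isoform was given 8 and 21 reads in kyp, 8 in globular, and 3 and 31 in WT libraries 7 and 11.

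YUC1 and YUC3 were the other YUCCA members with more than a few reads in the globular library. YUC1, which acts together with YUC4, had 11 reads there (6.53 CPM, interval 3.26 to 11.7) and 0 in each of the other libraries. YUC3 had 1 and 0 reads in kyp libraries 11 and 12, 17 in globular, 1 in seed coat, and 0 and 43 in WT libraries 7 and 11. Its 43 reads in WT library 11 (12.1 CPM) are not matched by WT library 7, where 0 reads allow up to 1.28 CPM. YUC9 had 2 reads and YUC8 had 1 read in the globular library, and YUC8 had 1 in the seed coat library.

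YUC11, one of the genes needed with YUC1, YUC4 and YUC10 for the embryo, was read mainly in a single WT library. It had 0 and 6 reads in kyp libraries 11 and 12, 0 in globular, 5 in seed coat, and 23 and 0 in WT libraries 7 and 11. Its locus overlaps AT1G21440 on the other strand and strand was not stated to be kept, so YUC11 reads are uncertain. AT1G21440 itself had 20 and 41 reads in kyp, 5 in globular, 36 in seed coat, and 33 and 51 in WT libraries 7 and 11. YUC7, outside the 10 genes and likewise overlapping a gene on the other strand, had the same kind of distribution, with 29 reads in WT library 7 and at most 2 in any other library.

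The summed level per length of TAA1 and the TAR genes was 50.8 and 58.8 RPKM in kyp libraries 11 and 12, 78.4 RPKM in globular, 36.8 RPKM in seed coat, and 37.3 and 32.5 RPKM in WT libraries 7 and 11. The 7 YUCCA members summed to 16.1 and 10.9 RPKM in kyp, 20.8 RPKM in globular, 3.21 RPKM in seed coat, and 11.1 and 18.1 RPKM in WT. The globular library had the highest of both sums. With YUC6 and YUC7 added, the YUCCA level per length was 27.4 and 42.5 RPKM in kyp libraries 11 and 12, 30.7 RPKM in globular, 18.7 RPKM in seed coat, and 56.2 and 33.4 RPKM in WT libraries 7 and 11, and the globular library was no longer the highest. The seed coat library had the lowest YUCCA sum either way, and its aminotransferase sum lay between those of the WT libraries.

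The comparison of kyp with WT embryos at the 2-4 cell stage asked whether transcripts differ when the mother carries kyp-2. TAA1, TAR2 and YUC4 had enough reads to be tested and none passed (edgeR quasi-likelihood test, adjusted over all 15996 genes tested, of which 0.0313% were called). None had an unadjusted p under 0.05, against 5.1% of all genes. DESeq2 called 0 of them and 0.319% of all genes. TAR2 averaged 50.9 ± 43.1 CPM in kyp and 44.5 ± 0.832 CPM in WT (SD, n = 2 each), and its log2 fold change was 0.22 (SE 0.57, 95% interval −1.03 to 1.47, edgeR adjusted p = 1). YUC4 averaged 11.3 ± 2.90 CPM in kyp and 9.49 ± 7.99 CPM in WT (log2 fold change 0.25, interval −1.63 to 2.14). TAA1 averaged 8.94 ± 8.87 CPM in kyp and 5.75 ± 6.95 CPM in WT (0.62, interval −2.16 to 3.41). The TAA1 and YUC4 intervals are wider than that of TAR2. In the same comparison the 5 endosperm markers tested all had a positive fold change (median 1.29), beside 7984 of 15996 genes. Of these markers 0 passed and 2 had an unadjusted p under 0.05 (edgeR). MEA averaged 15.4 ± 5.31 CPM in kyp and 2.61 ± 0.526 CPM in WT. FIS2, whose reads are uncertain, had 24 reads in kyp and 2 in WT. PHE1 was nearly even (log2 fold change 0.00865). The part of these markers in the kyp values was not tested.

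The libraries fall into a pair whose names carry the prefix MC (kyp 12 and WT 11) and a pair without it (kyp 11 and WT 7), and TAR2 went opposite ways within them. Its ratio of kyp to WT was 1.80 in the MC pair (95% counting interval 1.49 to 2.19) and 0.466 in the other pair (0.302 to 0.703). For YUC4 the ratios were 0.883 (0.595 to 1.31) and 2.41 (0.972 to 6.31), and for TAA1 3.18 (0.840 to 17.7) and 1.43 (0.773 to 2.62). A pair alone, with 1 library of each genotype, gives no test. With the prefix as a block over the 4 libraries the log2 fold changes were −0.06 for TAR2, 0.48 for YUC4 and 1.00 for TAA1 (edgeR adjusted p = 1 for each).

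The other members did not pass the filter on low counts in the kyp comparison. TAR1 was above both WT libraries in both kyp libraries, though by 9 reads against 6 in the MC pair, and 33.1% of tested genes had groups that did not overlap. Without a filter on low counts TAR1 had a log2 fold change of 4.04 (edgeR adjusted p = 0.118), and it passed with kyp library 12 left out (4.98, edgeR adjusted p = 0.0213), when kyp library 11 stands alone. YUC3 had 1 read in kyp and 43 in WT, and the ratio was 0.0244 (counting interval 0.000605 to 0.144), and all the WT reads were in library 11. YUC10 had 17 reads in kyp and 2 in WT (ratio 8.93, counting interval 2.12 to 79.7), but 16 of the 17 were in kyp library 11, and in the MC pair it had 1 read in kyp and 2 in WT (ratio 0.433, counting interval 0.00735 to 8.33).

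The globular stage was compared with WT embryos at the 2-4 cell stage. Of 7 members tested, 0 passed by edgeR, against 1.16% of 17706 genes, and DESeq2 called 0 against 2.44%, with an adjusted p for 3 of the 7 only. TAA1 was the only one with an unadjusted p under 0.05, which 11.3% of all genes had. It stood at 35.0 CPM in globular and 5.75 ± 6.95 CPM in WT (log2 fold change 2.64, SE 1.23, edgeR adjusted p = 0.433). It came to 5.31 without WT library 7 (edgeR adjusted p = 0.0569, the lowest of 12 alternatives) and 1.71 without WT library 11 (0.552), and the highest adjusted p was 0.637. The globular value was above the 15.2 CPM of the highest 2-4 cell library. TAR2 stood at 79.0 CPM in globular and 44.5 ± 0.832 CPM in WT (0.83, interval −0.54 to 2.19, edgeR adjusted p = 0.706), and YUC4 at 12.5 CPM in globular and 9.49 ± 7.99 CPM in WT (0.38, interval −2.02 to 2.77). YUC3 stood at 10.1 CPM in globular and 6.03 ± 8.52 CPM in WT (0.72, edgeR adjusted p = 0.944), and the fold change was −0.25 without WT library 7 and 7.59 without WT library 11. YUC1 was not tested, with 11 reads in globular and 0 in WT. Its globular level was 6.16 times the WT floor of 3 reads per library. Such a ratio is not a lower limit, since it leaves out counting error in the group with reads. On the same footing the mean WT level of YUC11 was 2.75 times the globular floor, with its WT reads in library 7 alone. A group of 1 library, here and for the seed coat, takes its spread from the 2-4 cell pairs, which leave 2 residual degrees of freedom. The edgeR test adds degrees of freedom shared over all genes. The total was 16531 for TAR1 in kyp over WT without kyp library 12. Without the filter on low counts it was 46264 for YUC4 in globular over seed coat. A gene's own spread counts for little in those fits.

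**Figure D3:**
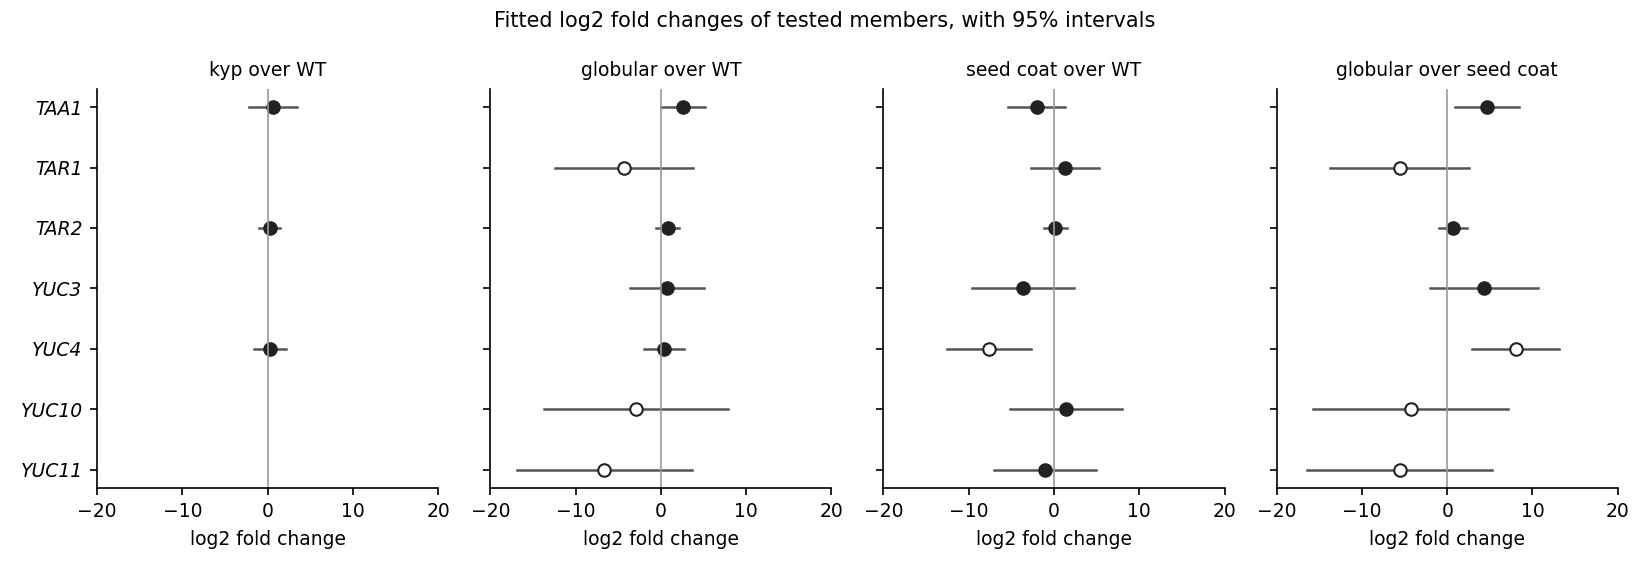
Fitted log2 fold changes (edgeR) of the members tested in each of 4 comparisons, with 95% intervals as horizontal lines, and open circles where a group has 0 reads and the fitted value depends on the prior count. None of the points passed the threshold of 0.05 after adjustment, and most intervals span 0.

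The seed coat was compared with WT embryos to set this tissue beside embryos of the same stage. The embryos are separate samples from crosses of Ler and Col, and the seed coat is labelled Ler alone. Tissue and cross cannot be told apart here. Of 7 members tested, 0 passed by edgeR, against 0.785% of all genes, and DESeq2 called 0 against 4.3%, with an adjusted p for TAR2 alone. YUC4 was the only one with an unadjusted p under 0.05, which 9.52% of genes had. It had 0 reads in seed coat, where the floor of 3 reads is 1.34 CPM. YUC4 averaged 9.49 ± 7.99 CPM in WT, 7.06 times that floor, with 3.84 CPM in WT library 7 (edgeR adjusted p = 0.191). The adjusted p ranged from 0.0482 to 0.290 over 12 alternatives, and it passed in 1 of them, without WT library 7. TAR2 stood at 50.2 CPM in seed coat and 44.5 ± 0.832 CPM in WT (log2 fold change 0.17, interval −1.22 to 1.57, edgeR adjusted p = 0.998). TAA1 had 3 reads in seed coat and 28 in WT, or 0.284 times the WT level (interval 0.0552 to 0.919 for counting error, edgeR adjusted p = 0.851). Without WT library 7 its direction turned (log2 fold change 0.65). YUC11 had 2.24 CPM in seed coat and 4.91 ± 6.94 CPM in WT (−1.09 on the log2 scale, SE 2.84, edgeR adjusted p = 0.993).

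The globular library was also set directly against the seed coat library. Of 7 members tested, 0 passed by edgeR, against 1.78% of all genes, and DESeq2 called 0 against 5.81%, with an adjusted p for TAA1 and TAR2 alone. TAA1 and YUC4 had an unadjusted p under 0.05, as had 13.8% of genes. TAA1 had 59 reads in globular and 3 in seed coat, or 26.1 times the seed coat level (interval 8.49 to 130 for counting error, edgeR adjusted p = 0.221). YUC4 had 21 reads in globular and 0 in seed coat, or 9.28 times the seed coat floor, again not a lower limit (edgeR adjusted p = 0.108). It passed in 2 of 11 alternatives, without WT library 7 (edgeR adjusted p = 0.0333) and without the filter on low counts (0.0479), with 0.215 as the highest value. YUC3, with 17 reads in globular and 1 in seed coat, stood 22.5 times higher (interval 3.53 to 941 for counting error, edgeR adjusted p = 0.600). TAR2 stood at 79.0 CPM in globular and 50.2 CPM in seed coat (log2 fold change 0.65, interval −0.97 to 2.28). Of 9 embryo markers 8 had a positive fold change in this comparison, and LEC1 and DRN had 0 reads in seed coat. The part of this difference in the ratios above was not tested.

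The files also give how many bases of a transcript carry reads, which shows whether a count rests on a few positions. The 46 TAR1 reads of kyp library 11 covered 73.2% of its 1167 bases, more than 93.3% of genes with like reads and length in that library, whose median was 56.2%. The 9 TAR1 reads of kyp library 12 covered 14.1% (median of like genes 22.5%, 10th percentile 14.5%). The 59 TAA1 reads of the globular library covered 67.9% (median of like genes 53.8%). YUC3 was the least spread: 43 reads in WT library 11 covered 29.4% (median 44.1%) and 17 reads in globular covered 17.0% (median 28.3%). The 11 YUC1 reads in globular covered 16.4% (median 24.6%). YUC4 covered 63.5% in WT library 11 (median 51.7%) and 43.7% in kyp library 12 (median 54.1%) at nearly equal reads.

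**Figure D4:**
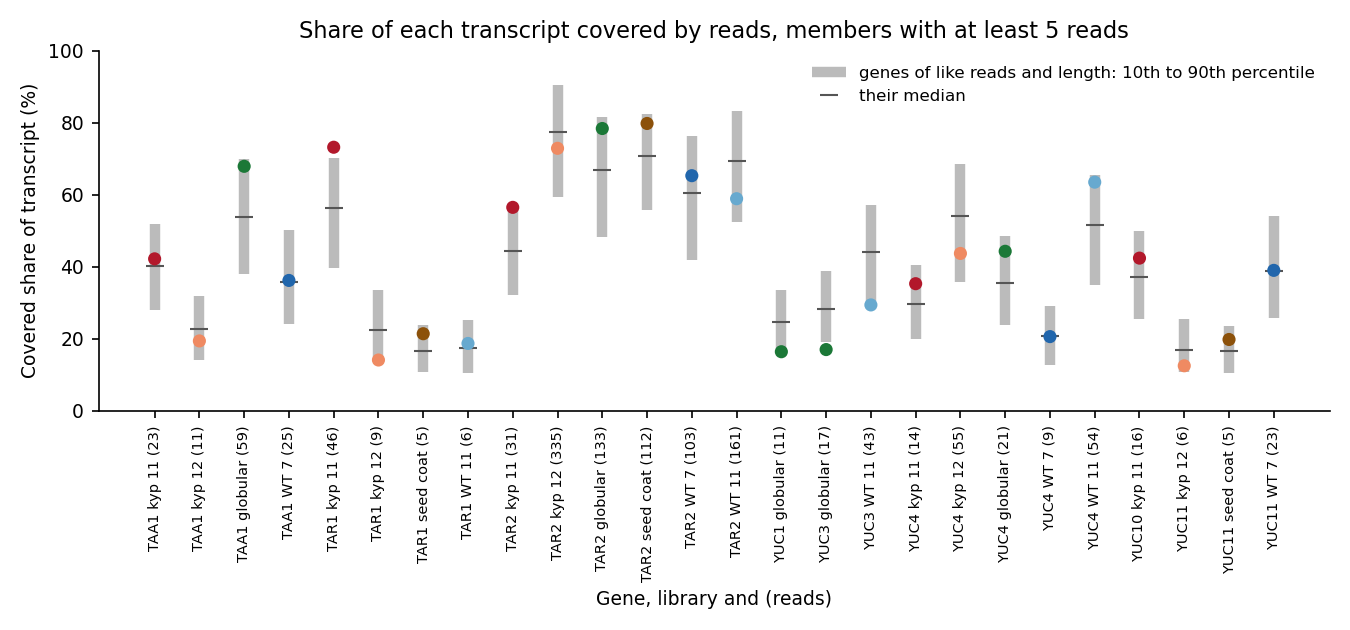
Covered share of the transcript (%) for each member and library with at least 5 reads, named with its reads, beside the 10th to 90th percentile (grey bar) and the median (dash) of genes with like reads and length in the same library. TAR1 in kyp library 11 lies above its bar at 73.2%. TAR1 in kyp library 12 lies just below its bar at 14.1%, and YUC3 in WT library 11 and in globular lies below its bars.

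The remaining genes of the 2 families placed the members in context. YUC2 and YUC5 had 0 reads in every library. YUC6, a YUCCA gene outside the 10, had more reads than any member YUCCA gene in every library, with 23.8 and 66.3 CPM in kyp libraries 11 and 12, 19.0 CPM in globular, 31.8 CPM in seed coat, and 75.1 and 32.2 CPM in WT libraries 7 and 11. It made up 41.2% and 74.0% of the YUCCA level per length in kyp, 29.4% in globular, 80.9% in seed coat, and 63.4% and 45.8% in WT. In globular YUC4 was close behind at 28.6%, followed by YUC3 at 18.9% and YUC1 at 15.9%. TAR4, a more distant aminotransferase-like gene, stood between 3.08 and 14.8 CPM. Neither passed in any comparison, and 0 of the tested genes of this list of 6 did.

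Of the 12 tryptophan synthesis genes, 10 were tested in each comparison and 0 passed, and their median log2 fold change was −0.38 in kyp over WT, −0.36 in globular over WT (−0.12 over all genes), −0.46 in seed coat over WT and −0.24 in globular over seed coat (−0.10 over all genes). The medians of all genes in kyp over WT and in seed coat over WT were −0.00107 and 0. TSA1, the alpha subunit of tryptophan synthase, stood between 53.4 and 138 CPM, and IGPS, an indole-3-glycerol phosphate synthase gene that overlaps a gene on the other strand and is uncertain, between 39.9 and 61.4 CPM. Among 11 genes of other auxin routes 0 passed, and CYP79B2, CYP79B3 and CYP71A13, of the indole-3-acetaldoxime route, had 0 reads in every library. VAS1, an aminotransferase that returns indole-3-pyruvic acid to tryptophan, was even across libraries at 70.1 to 90.9 CPM. NIT2, a nitrilase gene with close tandem copies and so uncertain, ranged from 4.27 to 83.3 CPM.

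Of the auxin pathway genes examined, those that passed belong to the GH3 enzymes, which inactivate auxin by joining it to amino acids. GH3.3 had 63 and 135 reads in kyp libraries 11 and 12, 10 in globular, 384 in seed coat, and 23 and 133 in WT libraries 7 and 11. It rose in the seed coat, which held 172 CPM against 23.5 ± 19.4 CPM in WT (log2 fold change 2.85, SE 0.64, edgeR adjusted p = 0.0440). That call was lost without WT library 7 (edgeR adjusted p = 0.0853), with isoforms summed (0.0977) and with the 4 libraries of 2-4 cell embryos as reference (0.102), and the lowest of 12 alternatives was 0.000128. GH3.3 fell in globular over seed coat, at 5.94 CPM in globular and 172 CPM in seed coat (−4.85, SE 0.94, edgeR adjusted p = 0.0132, at most 0.0331 in 11 alternatives). GH3.5 fell there too, with 3 reads in globular and 229 in seed coat, or 0.0174 times the seed coat level (interval 0.00355 to 0.0514 for counting error, edgeR adjusted p = 0.0282, and 0.0546 with isoforms summed). In globular over WT GH3.5 did not pass (−4.0, edgeR adjusted p = 0.140), though it did in 4 of 12 alternatives, without kyp library 11 (0.00435), kyp library 12 (0.00182) or WT library 7 (0.00447) and without the filter on low counts (0.00095). Without WT library 11 it passed in kyp over WT (3.1, edgeR adjusted p = 0.0385) and in seed coat over WT (3.73, edgeR adjusted p = 0.0132), where with all libraries the values were 1.19 and 1.81 and did not pass. Of the 17 conjugation, oxidation and release genes 14 were tested in these comparisons. In globular over seed coat all 14 fold changes were negative with 2 past the threshold (median −1.35), beside 9380 of 17706 genes negative (median −0.10) and 1.78% called. Markers of other tissues lay the same way: 9 of 11 seed coat markers (median −1.18) and 5 of 5 tested endosperm markers (median −2.73) were negative. In seed coat over WT 11 were positive with 1 past it (median 0.66), beside 8769 of 17706 genes positive and 0.785% called, and 5 of 5 tested endosperm markers were positive (median 1.62). The part of these markers in the GH3 values was not tested. GH3.17, named after its values were seen, had 13 reads in the seed coat library and 0 in every other.

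**Figure D5:**
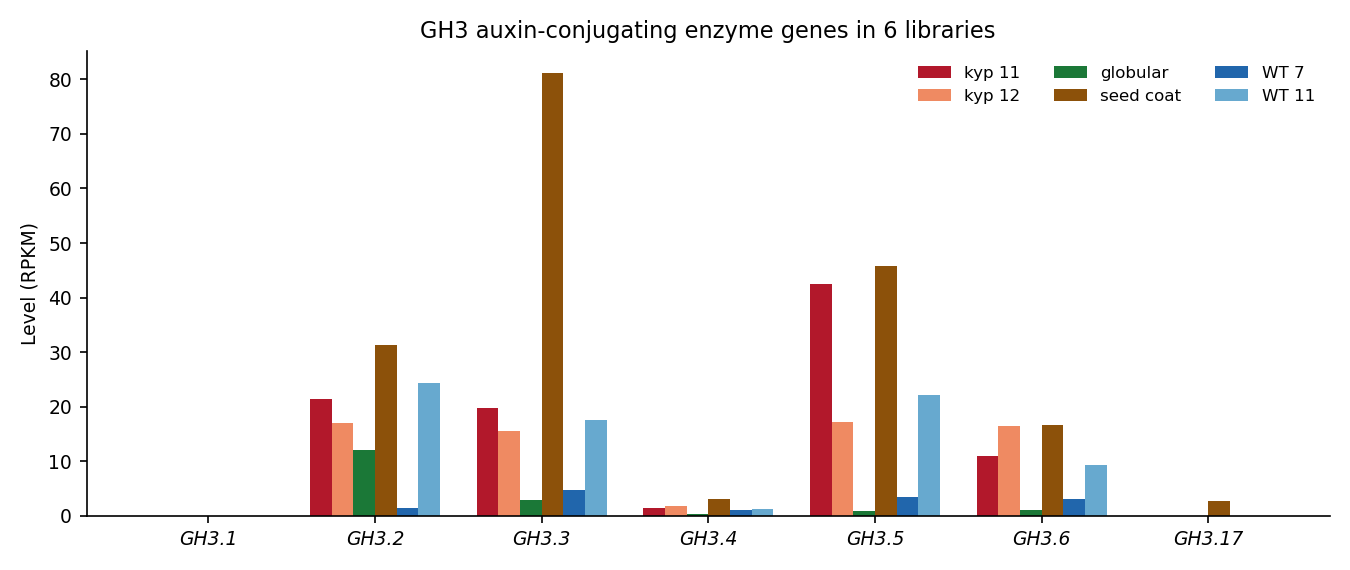
Level per length (RPKM, bars from 0) of the 7 GH3 genes of the list in each library, without error bars since each bar is 1 library. GH3.3 is highest in the seed coat library, where GH3.17 has its only reads, and GH3.3, GH3.5 and GH3.6 are low in the globular library.

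Over the 6 libraries, the genes whose level followed TAR2 most closely were FHIT (AT5G58240), OCP3 (AT5G11270) and AGP10 (AT4G09030), with Pearson correlations of 0.993, 0.981 and 0.976 on log2(CPM + 1). Closest to YUC4 were RPL27AB (AT1G23290), AT2G40765 and AT2G33430, with 0.990, 0.989 and 0.988. With 6 points and 13201 genes compared such values are a description: 20 genes for TAR2 and 58 for YUC4 were above 0.95. The libraries share depth and dissection, and the seed coat library is the lowest for YUC4 and for each of its 3 neighbours: RPL27AB stood at 132 CPM there, against 238 to 350 CPM in the others.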

How the data were processed

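Total RNA was extracted from dissected tissue, amplified linearly, sheared and sequenced on SOLiD, per the labels' protocols. The authors deposited read counts per transcript isoform, per the file headers, with covered bases and transcript length. Counts are whole numbers in 4 libraries. The 2 libraries with the name prefix MC hold fractional reads of 0.5, so their deposited values were taken as estimated counts and rounded, fractions upward. Aligner, counter, build and annotation are not given in the sources used here, so no coordinates are printed. RefSeq TAIR10.1 served for names and overlapping genes.

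The 37813 transcripts in all 6 files were used, 5 others were left out, and each locus was read from the isoform with most reads. The members and lists were chosen with earlier results of these data known. The kyp comparison used 4 libraries, the others all 6 in 4 groups. Tests were edgeR 4.0.16 quasi-likelihood tests (R 4.3.3), with TMM scaling, filterByExpr at a minimum count of 10 and Benjamini-Hochberg adjustment over all genes at 0.05, checked on simulated data. The simulation gave every gene the same relative spread and changed well-read genes only, so it does not bear on members with few reads. Levels are TMM-scaled CPM from the 6 libraries, and RPKM are these per kilobase. Standard errors are the log2 fold change over the square root of F. Floors are 3 reads per library, counting intervals exact Clopper-Pearson or Poisson. Named genes are the 10 members, KYP, markers, list genes past the threshold or else the 2 highest, and the 3 genes most like TAR2 and YUC4. Alternatives were DESeq2 1.42.0, other scalings, filters, isoform sums, thinning, libraries left out, the prefix as a block and other references. Isoform sums can count a read more than once, since TAR2 had 133 reads under each of its isoforms in globular. The scaling by library totals was chosen after seeing the data.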

Additional observations from a re-analysis of the deposited data

How the results depend on the processing

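The number of members called was 0 in each of the 4 comparisons and stayed 0 under every alternative with all libraries, except that 1 was called in globular over seed coat without the filter on low counts (YUC4). DESeq2 gave no adjusted p for 4 to 6 of the 7 members tested in the comparisons other than kyp over WT, so it could not call those. With a library left out the number ranged from 0 to 1 in kyp over WT, in seed coat over WT and in globular over seed coat. The WT and kyp libraries share only the sample number 11, so the numbers gave no pairs. The MC name prefix was used as a block instead and called 0 members.

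Some log2 fold changes changed sign. In kyp over WT, TAR2 was −0.089 after thinning and −0.062 with the prefix block, and YUC4 −0.26 after thinning. In globular over WT, YUC4 was −0.29 after thinning, and IGPS 0.0026 with the prefix block and 0.10 against all 2-4 cell libraries. In seed coat over WT, TAR1 was −1.86 and YUC10 −1.53 against all 2-4 cell libraries, YUC10 −0.19 with the prefix block, and NIT2 0.060 with library totals. With a library left out, ranges that spanned 0 in kyp over WT were −1.08 to 3.31 (TAA1), −1.11 to 0.87 (TAR2), −0.40 to 1.56 (YUC4), −1.16 to 0.51 (YUC6) and −1.21 to 3.4 (NIT2). In globular over WT they were −0.25 to 7.59 (YUC3), −0.28 to 1.69 (YUC4) and −1.59 to 1.60 (NIT2). In seed coat over WT they were −2.94 to 0.65 (TAA1), −4.61 to 3.25 (YUC3) and −1.10 to 2.09 (NIT2). For these the cause was not tested. Scaling by library totals moved the median of all genes by 0.31 in seed coat over WT, −0.28 in globular over seed coat and 0.14 in kyp over WT. TAR1, YUC10 and YUC11 gave no value where leaving out a library left both groups at 0 reads or took the gene under the filter. Low reads limit most members: a count of 0 allows 0.729 to 1.98 CPM.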
